A study of Mus musculus with 6 samples.

Results

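The genes described here are the feedback inhibitors that ERK signalling induces and the ETS factors that act below it: the MAPK phosphatases Dusp4, Dusp5, Dusp6 and Dusp7, the Sprouty genes Spry1, Spry2 and Spry4, the Sprouty-related Spred1, and the ETS transcription factors Etv4 and Etv5. They were chosen by gene symbol, and all 10 were found among the 30438 gene symbols of the count table. The choice was made with the difference between the groups already known, since the rule itself names Dusp6 as higher. For these 10 genes, levels, fold changes and calls therefore serve as a description and support nothing further. Poly(A) RNA was sequenced from 2 groups of 3 libraries of HEI-OC1, a conditionally immortalised line from the mouse organ of Corti. The first group is HEI-OC1 labelled as an Nrf2 knockout, and the second is HEI-OC1 labelled WT, called control below. Both were cultured in DMEM with 10% serum and antibiotics at 33 °C under 10% CO2, and no drug is recorded for either group. Whether the knockout line is 1 clone and where its edit lies were not stated in the labels.

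Growth factor receptors pass their signal through adaptors, RAS, RAF and MEK to the kinases ERK1 and ERK2. Active ERK induces its own brakes: dual-specificity phosphatases, which remove the phosphates that activate ERK, and Sprouty and SPRED proteins, which act upstream at the level of RAS and RAF. The ETS factors ETV4 and ETV5 are induced along the same route and carry its transcriptional output, and in the developing ear, FGF signals through this pathway take part in forming the otic placode and the sensory epithelium. Transcript levels of these genes are often read as a sign of ERK output, but ERK activity itself was not measured here.

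Libraries held between 29130007 and 51285343 counts. Nfe2l2, the gene that encodes NRF2, was at 396, 236 and 205 CPM (the count relative to library size, with TMM scaling) in the libraries labelled Nrf2 KO, against 74.2, 126 and 96.7 CPM in control libraries. Its transcript was therefore higher where the label says knockout, and every direction below sets libraries with that label over control libraries. A count over the whole gene is no check of an edit that keeps the transcript. Replicate 1 labelled Nrf2 KO stood apart from replicates 2 and 3, with a Pearson's r across genes of 0.931 and 0.939 (log2 CPM), against 0.995 between replicates 2 and 3. Its r with control replicates 1, 2 and 3 was 0.938, 0.907 and 0.919, so it was about as close to control replicate 1 as to its own group. Replicates 2 and 3 labelled Nrf2 KO had an r of 0.932 to 0.959 with the control libraries. Of the 10 hair cell markers, Atoh1, Slc26a5 and Slc17a8 had 0 counts in all 6 libraries, and so did the prosensory marker Sox2. The hair cell list summed to 62.7 to 76.5 CPM in libraries labelled Nrf2 KO and 33.4 to 45.5 CPM in control libraries, and of its 2 tested genes Myo7a was called higher, at 20.3 ± 8.35 CPM in libraries labelled Nrf2 KO and 1.32 ± 0.207 CPM in control libraries (SD, n = 3 each). Summed over 10 supporting cell markers, libraries labelled Nrf2 KO had 348 to 450 CPM and control libraries 233 to 251 CPM. Of the 5 tested, Sox9 and Fst were called higher and 0 lower. Jag1 (log2 fold change 0.57, SE 0.18), Lfng (-0.18, SE 0.42) and Fgfr3 (-0.34, SE 0.28) were not called. Over 8 fibroblast markers libraries labelled Nrf2 KO had 6739 to 8872 CPM and control libraries 5644 to 6756 CPM. Within the fibroblast list Col1a1, Col1a2, Pdgfra, Thy1 and Fbn1 were called higher, 5 of 7 tested. The log2 fold change was 3.27 (SE 0.27) for Col1a2, while Col3a1, the most abundant, had one of -0.66 (SE 0.19) and was not called. By the same rule 4.83% of all genes tested were called higher and 3.45% lower, the shares for every marker call here. Schwann and neuron markers summed to 10.9 to 17.8 CPM in libraries labelled Nrf2 KO and 19.2 to 26.2 CPM in control libraries. Epithelium markers summed to 5.40 to 7.69 CPM in libraries labelled Nrf2 KO and 0.922 to 1.83 CPM in control libraries. Leukocyte markers summed to 3.56 to 15.2 CPM in libraries labelled Nrf2 KO and 7.42 to 10.2 CPM in control libraries. Of the tested genes in those lists, Gap43 and Laptm5 were called lower and Krt7 higher. The part of these markers in the results below was not tested. Bulk RNA cannot tell fewer cells of a type from less RNA per cell. Separate cultures are not named in the labels, so p-values here rest on the spread between these libraries, which may be technical.

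Of the 10 genes, 8 had enough counts to test, and Dusp4 and Spry1 did not. Among the 8, Dusp6, Dusp7, Spry2, Spry4 and Etv5 were called higher where the label is Nrf2 KO and 0 were called lower (edgeR's quasi-likelihood test, Benjamini-Hochberg adjusted p under 0.05 over 14618 genes). The counts were 6 and 0 at an unadjusted edgeR p under 0.05, and 5 and 0 by each of DESeq2 and limma-voom. Over all genes tested, 4.83% were called higher and 3.45% lower. At an unadjusted edgeR p under 0.05, 1959 of the 14618 genes were higher and 1695 lower. The median log2 fold change was 1.17 over the 8 tested genes and 0.04 over all genes tested. In 6 of the 8, every library labelled Nrf2 KO lay above every control library, which held for 17.1% of all genes tested. Because the genes were proposed with this contrast in view, nothing is read from these shares.

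**Figure D1:**
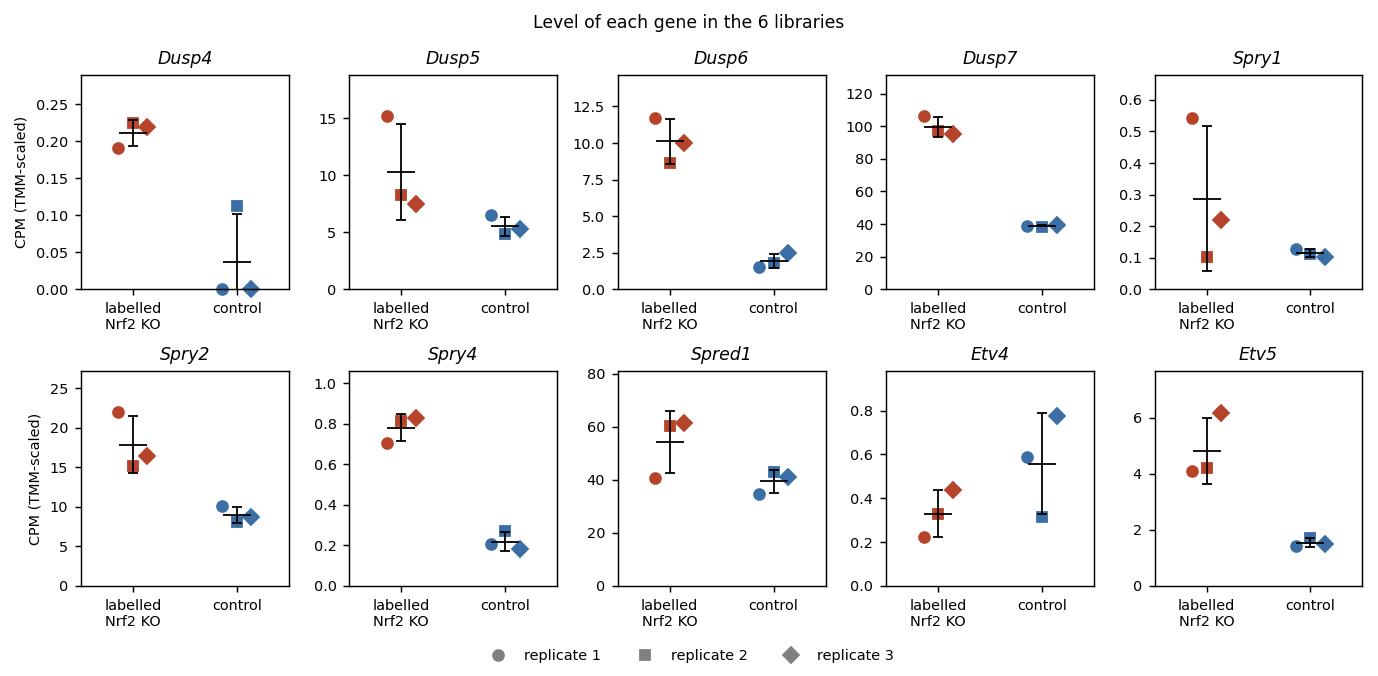
Level of each of the 10 genes in CPM (TMM-scaled, linear axis from 0) in 3 libraries labelled Nrf2 KO and 3 control libraries, with marker shape for the replicate number and a bar for the mean ± SD. For Dusp6, Dusp7, Spry2, Spry4, Etv5 and Dusp5 the groups do not overlap, while Spry1, Spred1 and Etv4 overlap and Dusp4 rests on at most 11 counts per library.

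Both phosphatases of the group that act on ERK in the cytoplasm were called higher. Dusp6 encodes the ERK-specific phosphatase MKP3. It was at 11.7, 8.65 and 9.99 CPM in libraries labelled Nrf2 KO and at 1.51, 1.82 and 2.48 CPM in control libraries, from 367, 425 and 411 counts under the Nrf2 KO label against 59, 81 and 96 in control. The lowest library labelled Nrf2 KO thus stood well above the highest control library. The means were 10.1 ± 1.53 CPM in libraries labelled Nrf2 KO and 1.93 ± 0.494 CPM in control libraries (SD, n = 3 each), a log2 fold change of 2.39 (SE 0.27), or 5.22-fold. Taken by replicate number, the log2 ratio was 2.92, 2.22 and 1.99.

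Dusp7 encodes a close relative of DUSP6 that also inactivates ERK in the cytoplasm. Its level was 106, 97.0 and 95.3 CPM in libraries labelled Nrf2 KO, against 39.1, 38.5 and 39.4 CPM in control libraries. It was the most abundant and the most even of the 10 genes within groups, with a coefficient of variation of 5.96% in libraries labelled Nrf2 KO and 1.15% in control libraries. The means of 99.5 ± 5.93 CPM in libraries labelled Nrf2 KO and 39.0 ± 0.447 CPM in control libraries (SD, n = 3 each) gave a log2 fold change of 1.35 (SE 0.13). Dusp6 and Dusp7 were the 2 genes of the group whose call was kept in all 15 alternatives run, with log2 fold changes of 2.13 to 2.60 and 1.29 to 1.38.

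Neither phosphatase of the nucleus was called by the main edgeR test. Dusp5, a nuclear phosphatase selective for ERK, was at 15.2, 8.27 and 7.46 CPM in libraries labelled Nrf2 KO and 6.48, 4.84 and 5.26 CPM in control libraries. The groups did not overlap, but the spread among the libraries labelled Nrf2 KO was wide because replicate 1 was high, and replicate 1 was also the highest control library. The means were 10.3 ± 4.23 CPM in libraries labelled Nrf2 KO and 5.53 ± 0.855 CPM in control libraries (SD, n = 3 each), and the log2 fold change of 0.90 (SE 0.33) was not called. It was called higher with the replicate number as a block (0.84, SE 0.20) and without both libraries numbered 1 (0.65, SE 0.15). Dusp4, a nuclear phosphatase of ERK and JNK, was near the limit of detection, with 6, 11 and 9 counts in the libraries labelled Nrf2 KO and 0, 5 and 0 in control libraries. It was not tested, and summed over libraries its scaled count ratio was 5.24 (95% interval 1.98 to 17.5 by the exact binomial method, counting error only).

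Promoter sequence was looked at for these genes because ETS and SRF sites are known routes by which ERK reaches its targets. RefSeq promoters (GRCm38.p6) were matched for 7 of the 10 genes, 8 promoters in all, and Dusp4, Spry4 and Etv4 had no match. The 250 bases before the start were searched on both strands for the ETS core GGAA, the longer ETS forms GGAAGT and CCGGAA, the AP-1 site TGANTCA, and the CArG box bound by SRF. GGAA lies within GGAAGT and CCGGAA, so those matches overlap. The promoters of Dusp6 and Dusp5 are shown because the first belongs to the gene with the largest fitted fold change of the 8 tested and the second held the CArG boxes, and capitals mark every match.
Dusp6, chr10:99262981-99263230, plus strand: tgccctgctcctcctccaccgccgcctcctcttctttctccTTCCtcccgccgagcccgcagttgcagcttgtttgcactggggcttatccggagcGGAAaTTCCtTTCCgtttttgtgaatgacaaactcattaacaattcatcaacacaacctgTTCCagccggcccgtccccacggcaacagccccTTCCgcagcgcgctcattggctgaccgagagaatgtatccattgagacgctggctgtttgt
Dusp5, chr19:53528895-53529144, plus strand: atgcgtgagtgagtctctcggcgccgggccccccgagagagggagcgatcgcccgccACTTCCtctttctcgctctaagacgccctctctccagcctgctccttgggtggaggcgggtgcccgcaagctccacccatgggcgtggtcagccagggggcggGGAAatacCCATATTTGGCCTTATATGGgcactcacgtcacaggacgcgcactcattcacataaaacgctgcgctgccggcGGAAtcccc
The Dusp6 window held 6 matches to GGAA and none to the other motifs. The Dusp5 window held 2 adjacent CArG boxes, which begin 82 and 72 bases before the start, and 1 match to GGAAGT on the minus strand, 193 bases before it. A CArG box was present in 1.47% of all 32851 promoters of the table and in 1 of the 8 here. GGAAGT was present in 19.7% of all promoters and in 2 of the 8, CCGGAA in 12.0% and 0, TGANTCA in 6.75% and 0, and GGAA in 93.4% and 6. These matches describe the letters of the windows and are neither sites of binding nor causes.

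Among the Sprouty family, Spry2 and Spry4 were called higher. Spry2, an inhibitor of receptor tyrosine kinase signalling upstream of ERK, was at 22.0, 15.2 and 16.5 CPM in libraries labelled Nrf2 KO, against 10.1, 8.07 and 8.74 CPM in control libraries. All libraries of the first group lay above all of the second, and replicate 1 was the highest in both groups. The means of 17.9 ± 3.60 CPM in libraries labelled Nrf2 KO and 8.98 ± 1.05 CPM in control libraries (SD, n = 3 each) gave a log2 fold change of 0.99 (SE 0.21). Spry4, a further Sprouty inhibitor of the route, was scarce, with 22, 40 and 34 counts in the libraries labelled Nrf2 KO and 8, 12 and 7 in control libraries. Its level was 0.781 ± 0.0685 CPM in libraries labelled Nrf2 KO and 0.218 ± 0.0463 CPM in control libraries (SD, n = 3 each), with a log2 fold change of 1.82 (SE 0.31). Spry4 passed the filter on low counts through the 3 libraries labelled Nrf2 KO, as only 1 control library was above the filter's level of 0.243 CPM. Spry1 had 17, 5 and 9 counts in the libraries labelled Nrf2 KO and 5, 5 and 4 in control libraries, too few to test, and the groups overlapped.

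Spred1 encodes a SPRED protein that brings neurofibromin to RAS. It was at 40.6, 60.5 and 61.5 CPM in libraries labelled Nrf2 KO and at 34.6, 43.0 and 40.9 CPM in control libraries. Replicate 1 was the lowest library of each group, the opposite of Dusp5 and Spry2, and replicate 1 labelled Nrf2 KO was within the control range. The log2 fold change of 0.46 (SE 0.21) was not called. It was called higher without replicate 1 labelled Nrf2 KO (0.62, SE 0.12) and without both libraries numbered 1 (0.54, SE 0.08).

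Of the ETS pair, Etv5 was called higher and Etv4 was not, and the difference between them was not tested. Etv5 was at 4.09, 4.19 and 6.15 CPM in libraries labelled Nrf2 KO, against 1.43, 1.71 and 1.50 CPM in control libraries. The groups were clear of each other, with replicate 3 the highest among the libraries labelled Nrf2 KO. The means of 4.81 ± 1.16 CPM in libraries labelled Nrf2 KO and 1.54 ± 0.146 CPM in control libraries (SD, n = 3 each) gave a log2 fold change of 1.64 (SE 0.26). Etv4 had 7, 16 and 18 counts in the libraries labelled Nrf2 KO and 23, 14 and 30 in control libraries. The groups overlapped, and its log2 fold change of -0.74 (SE 0.45) was the 1 negative value among the 8 tested genes and was not called in any of 14 alternatives. Of the 2 Etv5 promoters in the table, the downstream one is shown because it held the second GGAAGT match, 217 bases before its start, and capitals mark the matches to GGAA and GGAAGT.
Etv5, chr16:22438369-22438618, minus strand: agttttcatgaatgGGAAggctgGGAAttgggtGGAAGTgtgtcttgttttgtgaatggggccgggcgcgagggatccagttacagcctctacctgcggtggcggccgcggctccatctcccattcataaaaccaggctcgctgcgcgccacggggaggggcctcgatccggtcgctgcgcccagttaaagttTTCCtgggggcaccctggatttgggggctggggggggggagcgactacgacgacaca

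The calls depended on the libraries used. Without replicate 1 labelled Nrf2 KO, 6 of the 10 genes were called higher, the added gene being Spred1. Without any 1 of the other 5 libraries only Dusp6 and Dusp7 were called. Spry2, Spry4 and Etv5 lost the call in each of those 5 fits, that is without replicate 2 or 3 labelled Nrf2 KO or without control replicate 1, 2 or 3, and kept their direction, with log2 fold changes over all fits that left out 1 library of 0.81 to 1.10 for Spry2, 1.70 to 2.01 for Spry4 and 1.42 to 1.73 for Etv5. Spry2 also lost it with upper-quartile scaling and with library size alone. The background moved as well: the share of all genes called higher was 15.6% without replicate 1 labelled Nrf2 KO and 0.925% to 1.82% without any 1 of the other libraries.

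**Figure D2:**
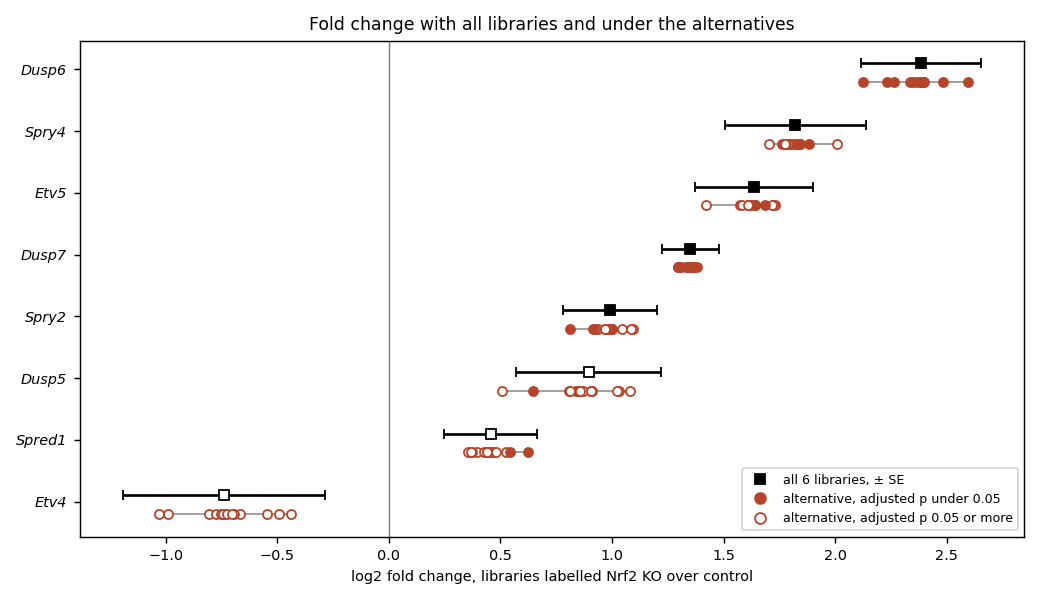
Log2 fold change (horizontal axis, libraries labelled Nrf2 KO over control) of the 8 tested genes, as a square with its SE for all 6 libraries and as circles for each alternative, filled where the adjusted p was under 0.05. Dusp6 and Dusp7 are filled throughout, Etv4 is open throughout and lies below 0, and no gene changes sign.

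Levels can be set between genes only per length, for which the authors' deposited table gives 1 FPKM per group and no spread. In the authors' deposited table Dusp7 was the most abundant, at 25.9 FPKM in the group labelled Nrf2 KO and 10.2 FPKM in the control group. In the group labelled Nrf2 KO the authors' deposited table then gives Spry2 at 6.31, Spred1 at 5.63, Dusp5 at 3.49, Dusp6 at 2.98 and Etv5 at 0.995 FPKM. In the control group the authors' deposited table gives Spry2 at 3.19, Spred1 at 4.12, Dusp5 at 1.87, Dusp6 at 0.572 and Etv5 at 0.323 FPKM. The other 4 genes were at 0.222 FPKM or less in both groups of the authors' deposited table. Spry2 and Spred1 exchanged places between the groups, and with 1 value a group whether these neighbours differ beyond their spread cannot be given. Dusp6, with the largest fitted fold change of the 8, was the fifth of the 10 in each group.

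Of 9585 other genes with a mean of at least 5 CPM, those whose log2 CPM followed Dusp6 most closely over the 6 libraries were Dyrk2, Ift88, Chn1, Bhlhe41 and Zbtb33, with a Pearson's r between 0.9937 and 0.9985. The 6 points form 2 groups, so these values mostly restate which genes separate the groups, and their log2 fold changes were smaller, from 0.20 (SE 0.13) for Zbtb33 to 0.90 (SE 0.13) for Bhlhe41.

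Over all genes tested, the shares called higher and lower that the counts below are read against were 4.83% and 3.45% with all 6 libraries, 10.9% and 9.02% by DESeq2, 5.14% and 4.12% by limma-voom, and 10.4% and 7.92% with the replicate block. They were 15.6% and 14.5% without replicate 1 labelled Nrf2 KO, and at most 1.82% and 0.74% without any 1 of the other 5 libraries. Counts at an unadjusted edgeR p under 0.05 are read against 1959 higher and 1695 lower of all 14618 genes.

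The relatives of these genes were then examined, 28 further MAPK phosphatases, Sprouty and SPRED genes and ETS factors. Of the 21 tested, 4 were called higher and 0 were called lower, against 4.83% and 3.45% of all genes, with a median log2 fold change of 0.18 against 0.04 over all genes. The counts were 4 higher and 3 lower at an unadjusted edgeR p under 0.05, 4 and 2 by DESeq2 and 4 and 0 by limma-voom. Dusp10, a phosphatase that prefers JNK and p38 to ERK, was at 25.3 ± 5.96 CPM in libraries labelled Nrf2 KO and 13.0 ± 0.887 CPM in control libraries (SD, n = 3 each), a log2 fold change of 0.95 (SE 0.21, adjusted p = 0.0445 by edgeR). Etv1, the third member of the Etv4 and Etv5 subfamily, had 18, 60 and 61 counts in the libraries labelled Nrf2 KO and 0, 2 and 0 in control libraries. Its scaled count ratio was 70.0 (95% interval 19.0 to 584 by the exact binomial method, counting error only; adjusted p = 0.0141 by edgeR). Erg, an ETS factor of endothelium and cartilage, had 42, 31 and 24 counts in libraries labelled Nrf2 KO against 0, 2 and 2 in control libraries (adjusted p = 0.0186 by edgeR). Etv1 and Erg passed the filter on low counts only through the libraries labelled Nrf2 KO, since every control library was below its level of 0.243 CPM. They thus had to differ to be tested at all, and their calls and their part in the count of 4 support nothing. A filter of 1 CPM left both untested, and Dusp10 lost its call. The list then held 1 higher and 0 lower of 19 tested, where 5.22% and 3.8% of all genes were called. Etv6, an ETS repressor, was at 15.6 ± 2.17 CPM in libraries labelled Nrf2 KO and 7.84 ± 0.588 CPM in control libraries (SD, n = 3 each), a log2 fold change of 0.99 (SE 0.18, adjusted p = 0.0260 by edgeR). Dusp8 and Dusp16, phosphatases of JNK and p38, were not called, with log2 fold changes of -0.88 (SE 0.34) and -0.68 (SE 0.18), and they were picked with their values known. With the replicate block Dusp16 was called lower (-0.69, SE 0.16), and the list held 6 higher and 1 lower. Without replicate 1 labelled Nrf2 KO 7 relatives were higher and 2 lower, where 15.6% and 14.5% of all genes were, and without any 1 of the other 5 libraries 0 and 0.

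Of 33 tested genes of the cascade itself, that is adaptors, RAS, RAF, MEK and ERK kinases, RSK kinases, scaffolds and RAS GTPase-activating proteins, 1 was higher and 0 lower, against 4.83% and 3.45% of all genes, with a median log2 fold change of 0.24. The counts were 5 and 3 at an unadjusted edgeR p under 0.05, where 1959 and 1695 of all 14618 genes were. They were 4 and 2 by DESeq2 and 1 and 1 by limma-voom. Shc1, an adaptor that links receptors to GRB2 and RAS, was at 184, 192 and 195 CPM in libraries labelled Nrf2 KO, against 116, 116 and 114 CPM in control libraries (log2 fold change 0.72, SE 0.13, adjusted p = 0.0249 by edgeR). The groups were well apart and even within themselves. Mapk3, which encodes ERK1, was at 165 ± 36.6 CPM in libraries labelled Nrf2 KO and 298 ± 16.7 CPM in control libraries (SD, n = 3 each). Its log2 fold change of -0.85 (SE 0.21, adjusted p = 0.0607 by edgeR) was not called by the main test. It was called lower in 7 of 15 alternatives, among them the replicate block (-0.87, SE 0.19), and was picked with its value known. With the replicate block the list held 8 higher and 2 lower, where 10.4% and 7.92% of all genes were, without replicate 1 labelled Nrf2 KO 8 and 3, where 15.6% and 14.5% were, and without any 1 of the other 5 libraries 0 and 0.

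**Figure D3:**
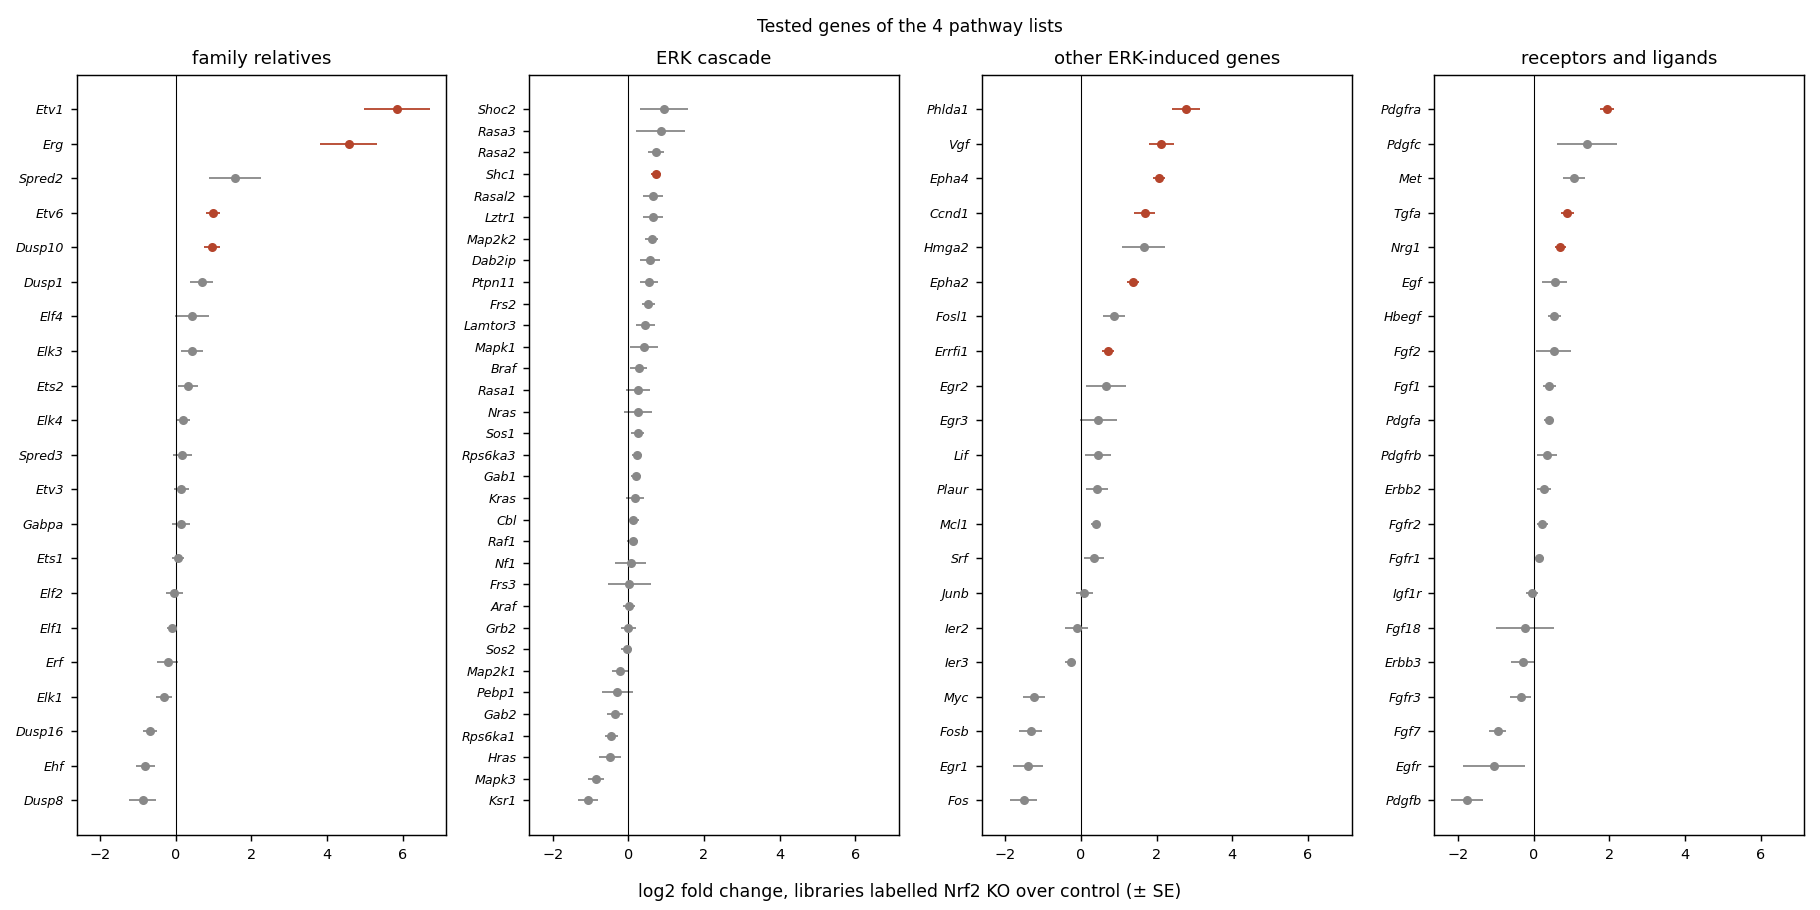
Log2 fold change with its SE (horizontal axis, libraries labelled Nrf2 KO over control) of every tested gene in 4 lists: family relatives, ERK cascade, other ERK-induced genes, and receptors and ligands. Genes with an adjusted p under 0.05 are red and the rest grey. The red genes, 4, 1, 6 and 3 in number, all lie to the right of 0. Among the red relatives, Etv1 and Erg passed the count filter only through libraries labelled Nrf2 KO.

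Of 21 tested other genes that ERK is known to induce, 6 were called higher and 0 were called lower, against 4.83% and 3.45% of all genes, with a median log2 fold change of 0.45. The counts were 9 and 4 at an unadjusted edgeR p under 0.05, 9 and 4 by DESeq2, where 10.9% and 9.02% of all genes were called, and 6 and 2 by limma-voom. Epha4, an ephrin receptor, was at 38.0, 39.2 and 34.4 CPM in libraries labelled Nrf2 KO and 9.31, 9.00 and 8.40 CPM in control libraries. Both groups were even, at a log2 fold change of 2.06 (SE 0.15, adjusted p = 0.00203 by edgeR). Epha2, a related receptor, had a log2 fold change of 1.37 (SE 0.15, adjusted p = 0.00529 by edgeR). Phlda1, a pleckstrin-domain protein often read as a marker of ERK output, was at 74.0, 32.4 and 38.4 CPM in libraries labelled Nrf2 KO, against 8.24, 5.94 and 7.04 CPM in control libraries (log2 fold change 2.77, SE 0.36, adjusted p = 0.00947 by edgeR). Vgf, a secreted neuropeptide precursor, had a log2 fold change of 2.12 (SE 0.33, adjusted p = 0.0156 by edgeR). The other two called genes were Ccnd1, which encodes cyclin D1 (1.69, SE 0.28), and Errfi1, an inhibitor of the EGF receptor (0.70, SE 0.16), both outside the rule for naming genes.

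The Fos, Jun, Egr, Ier and Myc genes on that list, most of them quick to respond to ERK, had log2 fold changes of both signs. By the main edgeR test none of these was called, and they were grouped with their values known. Egr2 (log2 fold change 0.66, SE 0.52), Egr3 (0.46, SE 0.48), Fosl1 (0.86, SE 0.29), Junb (0.08, SE 0.23) and Ier2 (-0.12, SE 0.30) overlapped between the groups. Ier3 (-0.27, SE 0.15) was lower in every library labelled Nrf2 KO than in any control library, and was not called in any of 15 alternatives. Fos was at 12.6, 17.7 and 11.0 CPM in libraries labelled Nrf2 KO and 53.0, 23.0 and 42.8 CPM in control libraries. Egr1 was at 6.67, 19.3 and 16.4 CPM in libraries labelled Nrf2 KO, against 41.3, 30.2 and 40.9 CPM in control libraries. Myc was at 95.7, 48.4 and 55.9 CPM in libraries labelled Nrf2 KO, against 185, 131 and 158 CPM in control libraries. In these and in Fosb every library labelled Nrf2 KO lay below every control library, a pattern of 17.1% of all genes tested. Their log2 fold changes were -1.52 (SE 0.35) for Fos, -1.33 (SE 0.31) for Fosb, -1.41 (SE 0.40) for Egr1 and -1.25 (SE 0.30) for Myc. None was called by the main edgeR test (adjusted p = 0.0528, 0.0519, 0.0874 and 0.0575 by edgeR, in the same order). All 4 genes were picked with their values known. With the same 6 libraries DESeq2 called all 4 lower, where 9.02% of all genes were. By limma-voom Fosb and Myc were called lower, where 4.12% of all genes were. With the replicate block Myc (log2 fold change -1.30, SE 0.16) and Fosb (-1.33, SE 0.32) were called lower, and Fos and Egr1 were not. All 4 were called lower without replicate 1 labelled Nrf2 KO, and none was called without any 1 of the other libraries. The list held 10 higher and 4 lower without that library, where 15.6% and 14.5% of all genes were called, and without replicate 2 or 3 labelled Nrf2 KO or control replicate 1, 2 or 3 it held 4, 3, 2, 2 and 1 higher and 0 lower.

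**Figure D4:**
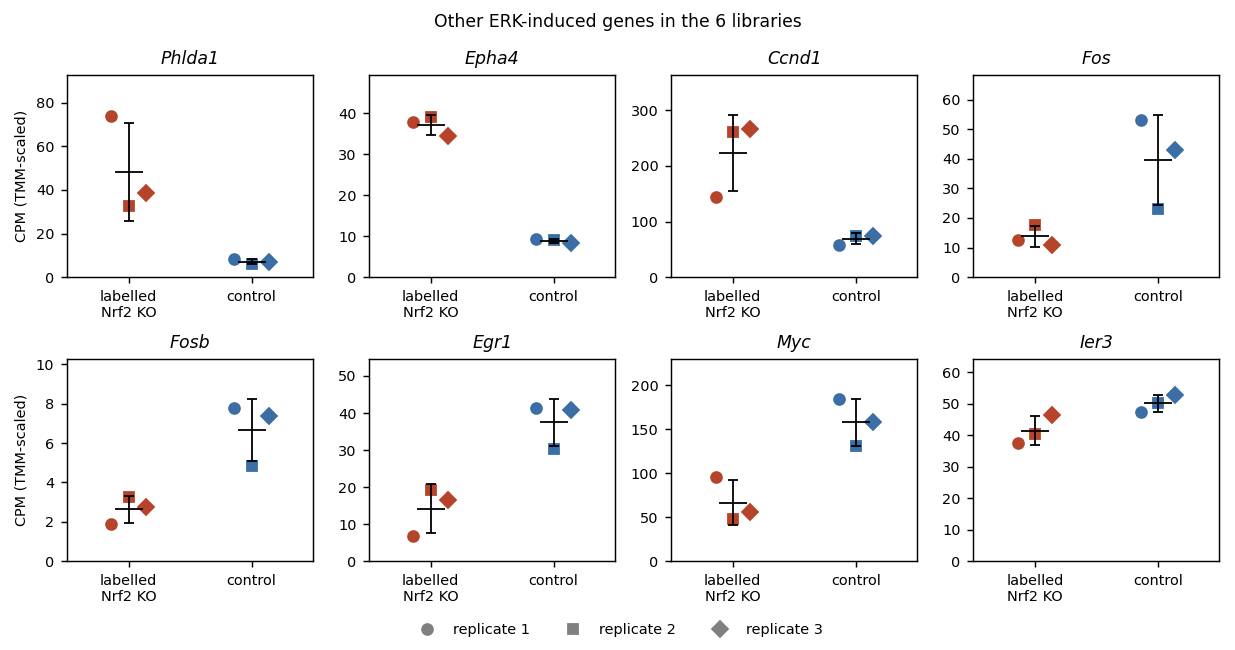
Levels of 8 of the other ERK-induced genes in CPM (TMM-scaled, linear axis from 0) in 3 libraries labelled Nrf2 KO and 3 control libraries, with marker shape for the replicate number and a bar for the mean ± SD. Phlda1, Epha4 and Ccnd1 lie higher under the Nrf2 KO label, and Fos, Fosb, Egr1, Myc and Ier3 lie lower without passing the main edgeR test. These 8 were picked with their values known, and none has groups that overlap. Of the 21 tested genes of the list, 7 lie wholly above control and 5 wholly below, and the rest overlap and are not drawn. Of all genes tested, 17.1% lie wholly above and 17.1% wholly below.

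Upstream, 3 of 21 tested receptors and ligands were higher and 0 lower, against 4.83% and 3.45% of all genes, with a median log2 fold change of 0.36. The counts were 6 and 2 at an unadjusted edgeR p under 0.05, 6 and 2 by DESeq2 and 3 and 2 by limma-voom. Pdgfra, a PDGF receptor that is also 1 of the 8 fibroblast markers, was at 180.0, 240.0 and 195 CPM in libraries labelled Nrf2 KO, against 50.5, 60.2 and 49.8 CPM in control libraries (log2 fold change 1.94, SE 0.18, adjusted p = 0.00345 by edgeR). The EGF receptor ligand Tgfa had a log2 fold change of 0.89 (SE 0.18, adjusted p = 0.0320 by edgeR) and the ERBB ligand Nrg1 one of 0.70 (SE 0.14, adjusted p = 0.0328 by edgeR). Egfr, the EGF receptor, was at 3.83, 54.7 and 45.8 CPM in libraries labelled Nrf2 KO and 63.4, 81.2 and 72.2 CPM in control libraries. Its log2 fold change of -1.05 (SE 0.82) was not called, and Egfr was picked with its values known. The ligands Fgf7 (-0.96, SE 0.22) and Pdgfb (-1.76, SE 0.42) were not called by the main test (adjusted p = 0.0529 and 0.0531 by edgeR). Fgf7 was called lower in 9 of 15 alternatives and Pdgfb in 6 of 14. Both were called lower with the replicate block (-0.99, SE 0.16, and -1.81, SE 0.34). They were picked with their values known. The call was 1 gene, Pdgfra, without any 1 of replicates 2 and 3 labelled Nrf2 KO and control replicates 1, 2 and 3. It was 8 higher and 4 lower without replicate 1 labelled Nrf2 KO, where 15.6% and 14.5% of all genes were called, and 5 and 2 with the replicate block, where 10.4% and 7.92% were. Of the 12 genes named by rule from the 4 lists, Epha4 and Pdgfra passed in all 15 alternatives, and the other 10 lost the call in at least 1 fit that left out a library.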

How the data were processed

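RNA of 6 HEI-OC1 libraries was analysed, 3 labelled Nrf2 KO and 3 control. The deposited counts are integers by gene symbol, 1 column a library. The authors' second deposited table holds FPKM, 1 value per group. The submitters' processing notes list fastp, FastQC, HISAT2, DESeq2 1.34.0 and the build hg18 without a role or an order. With counting tool, strand setting and annotation not given in the sources used here, overlapping and antisense genes cannot be separated. The symbols include 650 that begin with RGD, a name used for rat genes, although the labels give mouse cells. What this does to the levels was not tested.

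The main test was that of edgeR 4.0.16 (R 4.3.3). Genes passed filterByExpr (minimum count 10, minimum total 15), libraries were scaled by TMM, and the robust quasi-likelihood model held the group as its only term. Two-sided p-values were corrected after Benjamini and Hochberg over 14618 genes with a threshold of 0.05. Standard errors come from the quasi-likelihood fit, and log2 CPM used a prior count of 2. Alternatives were other scalings and filters, DESeq2 1.42.0, limma-voom (limma 3.58.1), the replicate number as a block, and leaving out libraries. No set test was run. Intervals cover counting error only. Promoters are those of RefSeq, GRCm38.p6.

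In the lists, up to 4 called genes with the smallest p were named. The members, the lists and this rule were chosen with earlier results of these data known. No pair of libraries differed by as little as sampling noise (smallest chi-square per degree of freedom 14.3). Libraries of the same number deviated together from their group means, with correlations of 0.754, 0.696 and 0.310 across genes for numbers 1, 2 and 3. All exceed 0.1, the limit set for them, and the labels give no pairing. Deviations of libraries with different numbers were not compared. These values therefore cannot tell pairing by number from a trend shared across numbers. Replicate 3 labelled Nrf2 KO had a Pearson's r of 0.9594 with control replicate 2 and 0.9556 with control replicate 3. The main test stayed unpaired. Blocked values are given where they change the call of a gene that was refitted singly. For other genes of the lists no blocked values are given.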

Additional observations from a re-analysis of the deposited data

How the results depend on the processing

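The single genes refitted were the 8 tested feedback and ETS genes, Nfe2l2 and the 12 genes named by rule. Ccnd1, Errfi1, Fos, Fosb, Egr1, Myc, Ier3, Dusp8, Dusp16, Mapk3, Fgf7, Pdgfb and Ehf were refitted too. Of all these, 0 changed direction under any alternative. Egfr, Egr2, Egr3, Fosl1, Junb, Ier2, the 5 genes most like Dusp6 and the cell type markers other than Pdgfra were not followed. For all genes, 706 higher and 505 lower became 1598 and 1318 with DESeq2 and 1520 and 1158 with the replicate block. They became 3540 and 3253 without both libraries numbered 1, an alternative chosen after seeing the data. There 24% of all genes were called higher and 22.1% lower, the shares for every count below without both libraries numbered 1. The shares higher and lower were 4.95% and 3.45% with RLE scaling and 4.31% and 4.08% with upper-quartile scaling. They were 4.42% and 3.66% with library size alone, 2.85% and 1.98% without a filter, and 5.22% and 3.8% with a filter of 1 CPM. Counts below under these settings are read against those shares. Leaving out 1 library gave 139 to 2323 higher and 57 to 2162 lower. The 10 feedback and ETS genes gave 4 to 7 higher and 0 lower in the fits with all libraries or without both numbered 1, and 2 to 6 higher and 0 lower without 1 library. The replicate block changed the call of Dusp5 alone among them, and 6 were higher.

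The family relatives held 1 higher with a filter of 1 CPM, and 1 lower with upper-quartile scaling or the block, 2 lower with DESeq2, and 9 higher and 3 lower without both libraries numbered 1. Without 1 library they held 0 to 7 higher and 0 to 2 lower. The cascade held 0 higher without a filter, 4 higher and 2 lower with DESeq2, and 8 and 2 with the block. It held 17 and 6 of 33 without both libraries numbered 1, where 24% and 22.1% of all genes were called. It held 1 lower with upper-quartile scaling, library size alone, a filter of 1 CPM or limma-voom, and 0 to 8 higher and 0 to 3 lower without 1 library. The other ERK-induced genes held 1 lower with upper-quartile scaling, library size alone, no filter or a filter of 1 CPM, 2 with limma-voom or the block, 4 with DESeq2, and 11 higher and 5 lower without both libraries numbered 1. Without 1 library they held 1 to 10 higher and 0 to 4 lower. Receptors and ligands held 1 higher without a filter, 6 higher and 2 lower with DESeq2, 5 and 2 with the block, and 8 and 4 without both libraries numbered 1. They held 1 lower with RLE scaling, library size alone or a filter of 1 CPM, 2 with upper-quartile scaling or limma-voom, and 1 to 8 higher and 0 to 4 lower without 1 library. A filter of 1 CPM left Spry4, Etv4, Etv1, Erg and Pdgfb untested. For the other settings the cause was not tested. Depth limits Dusp4 and Spry1, with 31 and 45 counts in all.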
